A study of Homo sapiens with 3 samples.

Results

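Named antisense RNA genes were examined in RNA sequencing data from HEK293, a widely used human cell line of embryonic kidney origin that carries adenovirus sequences, with 3 libraries in all. Members were the gene symbols ending in -AS, -AS1, -AS2 or -AS3 with at least 10 counts in each library, leaving out the HOX cluster and TTN-AS1, ENTPD1-AS1, UGDH-AS1, HMMR-AS1, VIM-AS1 and OIP5-AS1. This gave 215 genes among 26485 gene names and among 991 symbols with these suffixes: 3 ended in -AS, 202 in -AS1, 9 in -AS2 and 1 in -AS3. A further 10 such symbols with enough counts were left out by the rule, and 766 had fewer than 10 counts in at least 1 library. The counts chose the members, so their levels are given as a description, with no test.

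The 3 libraries formed 1 group of untreated HEK293 cells grown in serum-containing medium, with no treatment, genotype or time to compare. Ribosomal RNA was removed from total RNA and the libraries were built with a directional kit, although the sample titles call the libraries mRNA sequencing. Nothing in the labels ties the replicates to separate cultures, so the spreads and p-values below describe these 3 samples and may be technical.

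An antisense RNA is transcribed from the strand opposite another gene and is usually named after that gene with the suffix -AS. The pair can share a bidirectional promoter and run apart, run into each other at their ends, or lie with one inside the other. Well-studied members act on their partner through chromatin, through masking of splice or miRNA sites in the paired RNA, or through collision of the transcribing polymerases, and many others have no known function. Where exons of the pair overlap, the same genomic bases belong to both genes, and a sequencing read there can be given to one of them only from its strand.

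That strand information limits what the counts can mean here. No source used here gives the gene annotation or the strand option used for counting. Only 0.0184% of records were left as ambiguous between names, but which strand the reads under a name came from is not known. Each count below is the number assigned to the antisense name, uncertain as a measure of that RNA and, in an overlapping pair, of the partner's. Protein-coding genes that every cell uses had few counts in the same libraries. ACTB, the cytoskeletal beta actin, had 1, 0 and 1 counts in replicates 1, 2 and 3, and TUBB, a beta tubulin, was listed at 0 in all 3. GAPDH, a glycolytic enzyme, had 16, 3 and 4 counts, and EEF1A1, a translation elongation factor, had 68, 24 and 63. If the option was opposite to the kit's strand, reads from exon bases shared by an overlapping pair would stand under the other gene's name. The ratio of antisense name to partner in such a pair could then turn round. Outside the shared bases a name would hold reads from the strand opposite its gene, introns of a partner included. The gene's own reads there would fall under no name unless another exon lies opposite. This would hold for every name, paired or not. Which setting was used was not tested. The 7 kidney and neuronal lineage genes reported as a check of the line (PAX2, PAX8, LHX1, EYA1, NEFL, NEFM and INA) had 20, 15 and 26 counts in all, of which NEFL, a neurofilament, had 16, 12 and 22, and 2 of the 7 had no count. At these counts they neither bear out nor go against the label.

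Gene-assigned counts were 412066, 483114 and 289241 in replicates 1, 2 and 3, which was 2.02% ± 0.396 (SD, n = 3) of all records. A single count equalled 2.29, 2.31 and 3.30 counts per 1000000 of the effective library size (CPM), and the limit that a count of 0 allows, taken as 3 counts, was 6.86, 6.92 and 9.89 CPM. TSIX, the antisense RNA of the X-inactivation gene XIST, took 17.9%, 28.5% and 17.1% of the counts. Replicate 2 therefore had the largest total and the largest TSIX share.

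The sequences that show what overlap means are those at the edge of an exon of the opposite gene. Each of the 5 members below is among the 15 highest or has a partner with next to no counts, and each window is given 5′ to 3′ on the antisense strand, with capitals for bases that are also coding sequence of the named partner on the other strand. They come from RefSeq (GRCh38.p14) for PCNA-AS1 and from GENCODE release 29 (GRCh38) for the others.
PCNA-AS1, chr20:5119516-5119635, plus strand: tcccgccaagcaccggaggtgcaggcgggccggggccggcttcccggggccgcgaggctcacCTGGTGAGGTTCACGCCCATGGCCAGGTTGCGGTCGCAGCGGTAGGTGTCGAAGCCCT
NIFK-AS1, chr2:121727853-121727972, plus strand: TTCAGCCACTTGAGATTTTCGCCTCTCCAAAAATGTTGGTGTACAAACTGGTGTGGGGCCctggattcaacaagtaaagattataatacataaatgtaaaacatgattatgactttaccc
TMPO-AS1, chr12:98516087-98516206, minus strand: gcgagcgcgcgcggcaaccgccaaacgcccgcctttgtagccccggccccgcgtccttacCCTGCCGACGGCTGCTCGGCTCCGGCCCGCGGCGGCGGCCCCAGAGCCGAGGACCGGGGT
ZRANB2-AS1, chr1:71066875-71066994, plus strand: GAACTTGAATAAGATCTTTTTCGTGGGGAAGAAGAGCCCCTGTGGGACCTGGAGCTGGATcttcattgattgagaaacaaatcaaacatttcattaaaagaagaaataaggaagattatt
MED4-AS1, chr13:48079784-48079903, plus strand: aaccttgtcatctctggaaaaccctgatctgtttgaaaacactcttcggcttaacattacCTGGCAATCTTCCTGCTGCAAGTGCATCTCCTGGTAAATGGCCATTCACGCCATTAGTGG
Every window held 60 partner coding bases, except that of PCNA-AS1 with 58. Read on the partner's strand, the 2 bases next to the capitals were GT, the start of an intron, for PCNA, TMPO and MED4, and AG, the end of an intron, for NIFK and ZRANB2. In 4 of the pairs the antisense exon thus ran on across a splice site of its partner, and the lower-case bases are exonic on the antisense strand and intronic on the other. PCNA-AS1 instead begins within the capitals, and the lower-case bases lie upstream of it, in an intron of PCNA.

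The members' summed counts were 34348, 32367 and 25899 in replicates 1, 2 and 3. They held 8.34%, 6.70% and 8.95% of gene-assigned counts, or 7.996% ± 1.17 (SD, n = 3), and all antisense symbols together held 9.55% ± 1.26 (SD, n = 3). With TSIX removed from the denominator the share was 10.1% ± 0.715 (SD, n = 3), so part of the lower share in replicate 2 moved with TSIX. The median member had a mean of 160.4 CPM, with quartiles of 76.8 and 381.5 CPM and a range of 30.4 to 3725 CPM, against a median of 109.9 CPM over the 2564 names with at least 10 counts in each library. The 15 highest members held 38.5% ± 1.94 (SD, n = 3) of all member counts. Ranks by CPM are not per length: longer exons collect more reads.

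RNF219-AS1 was the highest member and lies opposite the end of RNF219, a RING-finger ubiquitin ligase gene. It received 1447, 1810 and 1121 counts in replicates 1, 2 and 3, or 3725 ± 433 CPM (SD, n = 3), against 8, 14 and 16 counts for RNF219. Its gene body spans 77919689 to 78617328 on the plus strand of chromosome 13, and 1448 of its 8790 exon bases lie in exons of RNF219. The antisense name was far above its partner in all 3 libraries, with no overlap of the counts.

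PCNA-AS1 is named for PCNA, the sliding clamp of DNA replication. It received 1593, 1158 and 1003 counts, or 3206 ± 494 CPM (SD, n = 3), and PCNA received 0, 2 and 0. Its share of the pair's counts was 100%, 99.8% and 100%, with 95% Wilson intervals that reached no lower than 99.8%, 99.4% and 99.6%. These intervals and the limit for a count of 0 cover counting error only. In RefSeq the RNA spans 384 bases of chromosome 20, from 5119586 to 5119969, and all 384 lie in exons of PCNA, 213 of them coding. No base of this antisense gene lies outside its partner's exons, so without the strand no read of it is unambiguous.

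PRC1-AS1 lies inside PRC1, which bundles the microtubules of the central spindle at cytokinesis. It had 1303, 1156 and 979 counts, or 2957 ± 282 CPM (SD, n = 3), against 43, 44 and 20 for PRC1. TMPO-AS1 overlaps the start of TMPO, the gene of the nuclear lamina proteins called LAP2. It had 1110, 692 and 763 counts, or 2216 ± 538 CPM (SD, n = 3), against 26, 44 and 40 for TMPO. TMPO-AS1 was lowest in replicate 2, and its lowest count was well above the highest of TMPO.

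BZRAP1-AS1 is named for BZRAP1, a synaptic scaffold gene with no count in any library. It had 1184, 909 and 919 counts, or 2610 ± 474 CPM (SD, n = 3), at least 303-fold higher than BZRAP1 in each library when 3 counts per library stand for the partner. Its exons overlap most with those of another opposite gene, RNF43, a ubiquitin ligase that lowers Wnt receptors, which had 35, 44 and 12 counts. The symbol of an antisense gene therefore need not name the gene with which it shares most bases.

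NIFK-AS1 lies opposite the end of NIFK, a nucleolar protein that binds the proliferation antigen Ki-67. It had 1043, 1130 and 787 counts, or 2528 ± 124 CPM (SD, n = 3), against 1, 6 and 6 for NIFK, and was the steadiest of the 6 highest. FBXO22-AS1, named for the substrate receptor of a ubiquitin ligase, had 712, 781 and 643 counts, against 4, 18 and 5 for FBXO22. ZRANB2-AS1, named for a splicing factor, had 704, 684 and 541 counts, against 4, 34 and 7 for ZRANB2. All 3 of these antisense names exceeded their partners in every library.

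NDUFB2-AS1, named for a subunit of respiratory complex I, had 855, 462 and 555 counts, or 1616 ± 482 CPM (SD, n = 3), and NDUFB2 had none, so that the antisense name was at least 154-fold higher in each library. SLC25A5-AS1, named for a mitochondrial ADP/ATP carrier, had 654, 451 and 531 counts, against 2, 4 and 3 for SLC25A5. NDUFB2 and SLC25A5 are abundant mRNAs in most growing cells, as background, and were at or near 0 in these tables.

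STARD7-AS1, named for a lipid transfer protein of mitochondria, was the least even of the 15 highest, with 748, 329 and 502 counts, or 1374 ± 534 CPM (SD, n = 3), against 26, 16 and 11 for STARD7. CERS6-AS1, named for a ceramide synthase, had 489, 649 and 469 counts, and IDI2-AS1, named for an isoprenoid isomerase, had 547, 532 and 499. PRMT5-AS1, named for the arginine methyltransferase that modifies spliceosome proteins, had 528, 483 and 447 counts, against 0, 2 and 0 for PRMT5. Of these 15 members 11, STARD7-AS1 among them, were lowest in replicate 2, counted whether or not they varied beyond counting noise. Among all names that varied, 37% were lowest in that library, and its place depends on the scaling, as given below.

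**Figure D1:**
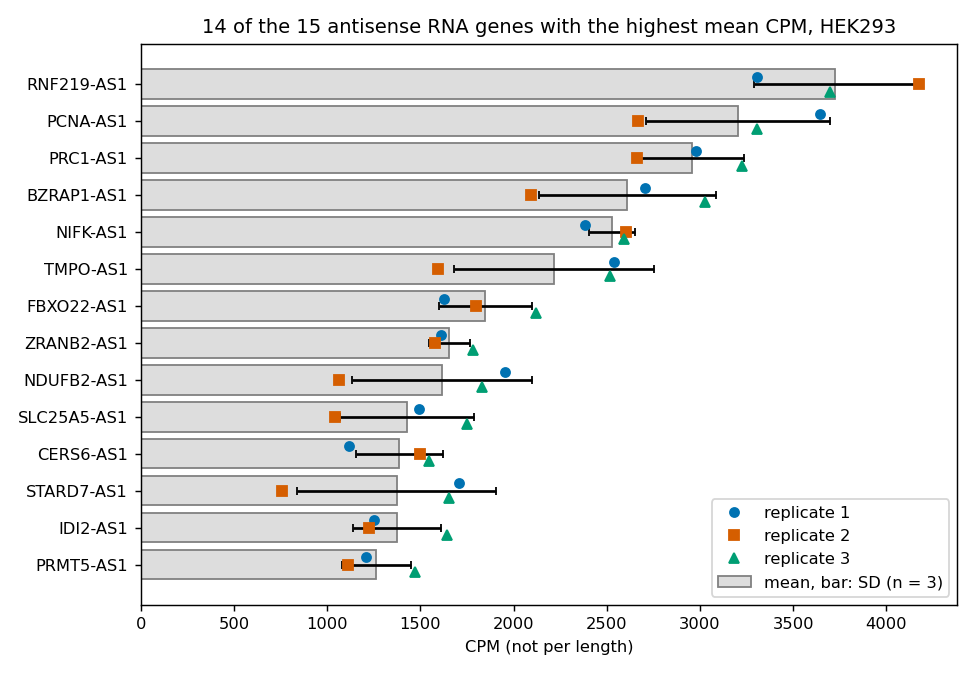
CPM of 14 of the 15 highest antisense RNA genes in each HEK293 library (circles, replicate 1; squares, replicate 2; triangles, replicate 3), with grey bars for the mean and black lines for the SD (n = 3). The bars run from 3725 CPM for RNF219-AS1 to 1265 CPM for PRMT5-AS1, and the squares of replicate 2 are often the lowest points.

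Per kilobase of merged exon the order was different. HIF1A-AS2, which lies at the 3′ end of HIF1A, the oxygen-regulated transcription factor, led with 2154 ± 367 CPM per kilobase (SD, n = 3) on 533 exon bases. LMO7-AS1 followed with 1825 ± 248 CPM per kilobase, ZRANB2-AS1 with 1713 ± 115, GAS5-AS1 with 1693 ± 264 and PRC1-AS1 with 1644 ± 157 (SD, n = 3 each). These neighbours in the order differ by less than their spreads. The exon lengths come from GENCODE release 29, which may differ from the annotation used to count. The median of the 204 members with a length was 65.5 CPM per kilobase, and the range was 3.12, for MAGI2-AS3, to 2154. RNF219-AS1, first by CPM, stood 29th per kilobase, at 423.8 CPM per kilobase.

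The gene named in the symbol was present in the tables for 213 members, as 209 distinct partners. Of these partners 24 had no count in any library, or 11.5% against 45.3% of all gene names, 59 had at least 10 counts in each library, or 28.2% against 9.68% of all names, and 126 lay between. The partners' median was 15.5 CPM. Their summed counts were 4662, 4805 and 3237, and the summed counts of the 213 members named for them, 34059, 31987 and 25654, were 7.30 ± 0.634 times as high (SD, n = 3). The members had to reach 10 counts and the partners did not, so the direction of this difference is fixed in part by the rule. With the strand setting exchanged, reads in exon bases shared by a pair would belong to the other gene, which could turn the difference round.

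Per kilobase, 178 of 197 members with both lengths, or 90.4%, were higher than their partner in every library, 5 in 2 libraries, 7 in 1 and 7 in none. Over all antisense symbols with both lengths the share higher in every library was 36.5%. By CPM, which is not per length, 181 of 213 were higher in every library, or 85.0% against 28.9% of all antisense symbols with a partner name. These wider sets include symbols with fewer than 10 counts in a library, so the differences in share are fixed in part by the rule. The median log2 ratio of member over partner, as CPM plus 0.5, was 4.10, with per-library medians of 3.61, 4.03 and 3.90, and the per-kilobase median was 5.16. With the 24 members whose partner had no count set to their lower bound against 3 counts, the median was 3.69. These directions are for counts by name, and the unstated strand option could turn them round in overlapping pairs. Across members, mean CPM and partner CPM had a Spearman rho of 0.117, a description over names from the same 3 libraries.

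The 8 highest mean log2 ratios belonged to BZRAP1-AS1, NDUFB2-AS1, PCNA-AS1 and PRMT5-AS1 above and to 4 others whose partners also lay at or near 0. UXT-AS1, named for a prefoldin-like cofactor, had 547, 419 and 438 counts, against 1, 0 and 0 for UXT. LMO7-AS1, named for an actin-associated LIM protein, had 436, 433 and 380 counts, against 0, 4 and 0 for LMO7. MED4-AS1, named for a subunit of the Mediator of transcription, had 172, 201 and 169 counts, and MED4 had none, at least 56.3-fold lower in each library. AP4B1-AS1, named for a subunit of an adaptor complex of the Golgi, had 183, 163 and 129 counts, and AP4B1 had none, at least 43-fold lower in each library.

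By CPM 20 members exceeded their partner in no library, and 19 of them were below it in every library. BACE1-AS, known as a stabiliser of the mRNA of beta-secretase, which cuts the amyloid precursor, had 10, 31 and 17 counts, against 122, 162 and 76 for BACE1. NEXN-AS1 had 39, 12 and 13 counts, against 126, 257 and 88 for NEXN, an actin-binding protein of muscle. The NEXN pair had the lowest mean log2 ratio, -2.94 ± 1.37 (SD, n = 3), and its large spread came with opposite extremes of the pair in replicate 2, where NEXN-AS1 had its lowest count and NEXN its highest.

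CIRBP-AS1 had 40, 30 and 16 counts, against 193, 104 and 108 for CIRBP, a cold-inducible RNA-binding protein. CFLAR-AS1 had 23, 42 and 33 counts, against 114, 90 and 61 for CFLAR, an inhibitor of caspase-8 activation. SLFNL1-AS1 had 119, 77 and 54 counts, against 272, 233 and 142 for SLFNL1, a schlafen-like gene that lies within the antisense gene. The remaining 3 of the 8 lowest ratios were DLEU1-AS1 with 19, 18 and 13 counts against 59, 156 and 67, LMLN-AS1 with 10, 11 and 14 against 59, 72 and 49, and A1BG-AS1 with 13, 11 and 11 against 72, 30 and 20. Per kilobase 9 of the 20 turned round and were higher than their partner in every library, among them DLEU1-AS1, LMLN-AS1 and CFLAR-AS1. NEXN-AS1, BACE1-AS, A1BG-AS1 and SLFNL1-AS1 were lower on both scales in every library.

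**Figure D2:**
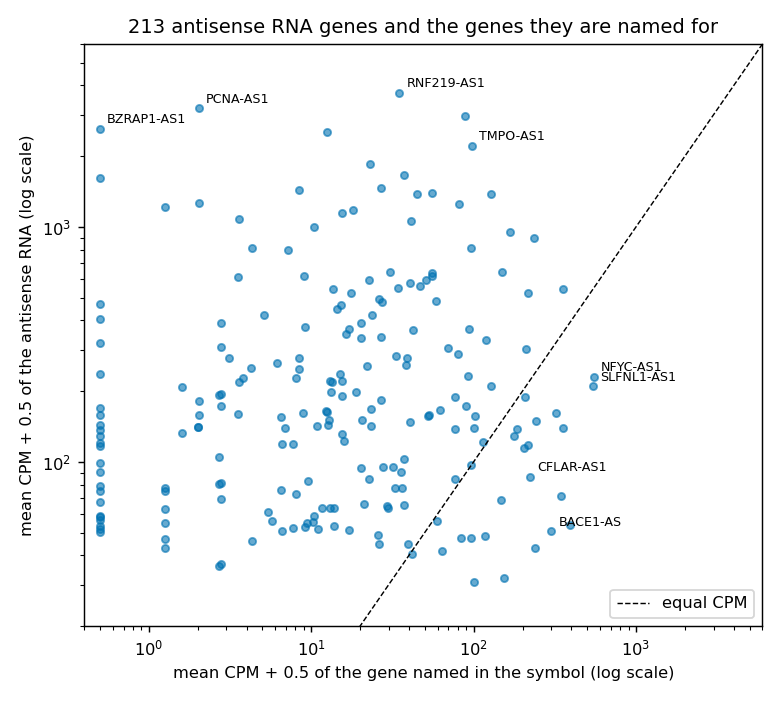
Mean CPM plus 0.5 of 213 antisense RNA genes (vertical, log scale) against that of the gene each is named for (horizontal, log scale), 1 point per antisense gene, averaged over 3 libraries. Most points lie above the dashed line of equal CPM, the column at the left edge holds partners with no count, and BACE1-AS, CFLAR-AS1, SLFNL1-AS1 and NFYC-AS1 are among the points below the line.

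Of the 215 members 204 were found in GENCODE release 29, 199 by name and 5 through an older symbol. An exon of an opposite-strand gene overlapped exons of 182, or 89.2%, against 381 of 698 other antisense symbols, or 54.6%. The members had to reach the count limit and the other symbols did not, so this difference may be fixed in part by the rule. How much of it the rule accounts for was not tested. The overlap was 3 to 3705 bases long with a median of 380, or 17.6% of the member's exon bases, and its largest part lay with a protein-coding gene in 169. In 33 members, counted with renamed partners resolved and ties left out, the largest overlap was with a gene other than the named one, such as ADCK2, a mitochondrial kinase-like gene, for NDUFB2-AS1, IDI1 for IDI2-AS1 and UCHL3, a ubiquitin hydrolase gene, for LMO7-AS1. Median exon length was 2476 bases in members and 1770 in the other antisense symbols. The rule may fix part of this difference too. Another gene on the same strand shared exon bases with 22 members, and such reads can be set aside or split.

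Members with such an overlap had a median of 72.8 CPM per kilobase, and the 22 without it had 51.1. By CPM the medians were 170.2 and 111.7, in the same order, and Spearman's rho between CPM and overlap length was 0.281, against 0.0155 between CPM and exon length. Both are descriptions across genes. HIF1A-AS2 was the highest of the 22 without overlap, with 420, 586 and 344 counts, or 1148 ± 196 CPM (SD, n = 3). SH3RF3-AS1 with 137, 99 and 87 counts and PAN3-AS1 with 116, 78 and 63 start apart from their partners and run away from them. HIF1A-AS2, SH3RF3-AS1 and PAN3-AS1 collected counts without an annotated opposite exon in this stand-in annotation, which may differ from the one used to count. The body of HIF1A-AS2 overlaps that of HIF1A, although their annotated exons do not. With a strand option opposite to the kit's, the counts of all 3 would also be reads from the other strand.

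Starts overlapped in 70 pairs, with a median of 155.3 CPM for the antisense gene, and ends overlapped in 60, with a median of 209.3 CPM. Here starts overlap when each lies within the body of the other gene, introns included, so they can be far apart. The antisense gene lay inside its partner in 53 pairs, with a median of 138.2 CPM, and the partner lay inside the antisense gene in 7, with a median of 117.4 CPM. In 6 pairs the starts lay apart and the genes diverged, with a median of 134.1 CPM, and SRGAP2-AS1 lay farther than 10 kilobases from SRGAP2. Per kilobase the medians of these 5 arrangements, as listed, were 49.97, 65.01, 88.09, 21.75 and 51.49 CPM. The ranking of the arrangements thus depends on the scale. The antisense gene was above its partner by CPM in every library in 59 of 70, 55 of 60, 44 of 53, 2 of 7 and 5 of 6 pairs, in that order of arrangements. SLFNL1-AS1 was the highest by CPM of the 7 that enclose their partner.

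**Figure D3:**
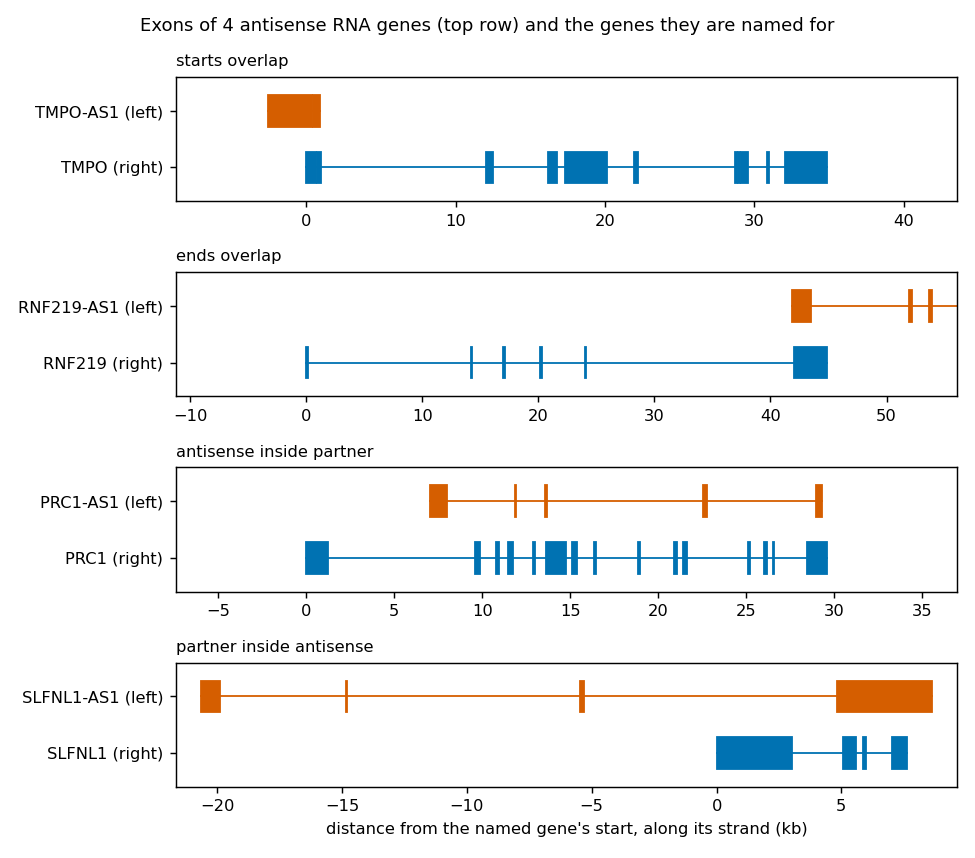
Exons (boxes) and introns (lines) of 4 antisense genes (upper row of each panel) and their partners (lower row), in kilobases from the partner's start along its strand, with right or left for the direction of transcription. The panels show overlapping starts for TMPO-AS1, overlapping ends for RNF219-AS1, whose gene body continues beyond the axis, an antisense gene inside PRC1, and SLFNL1 inside its antisense gene.

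**Figure D4:**
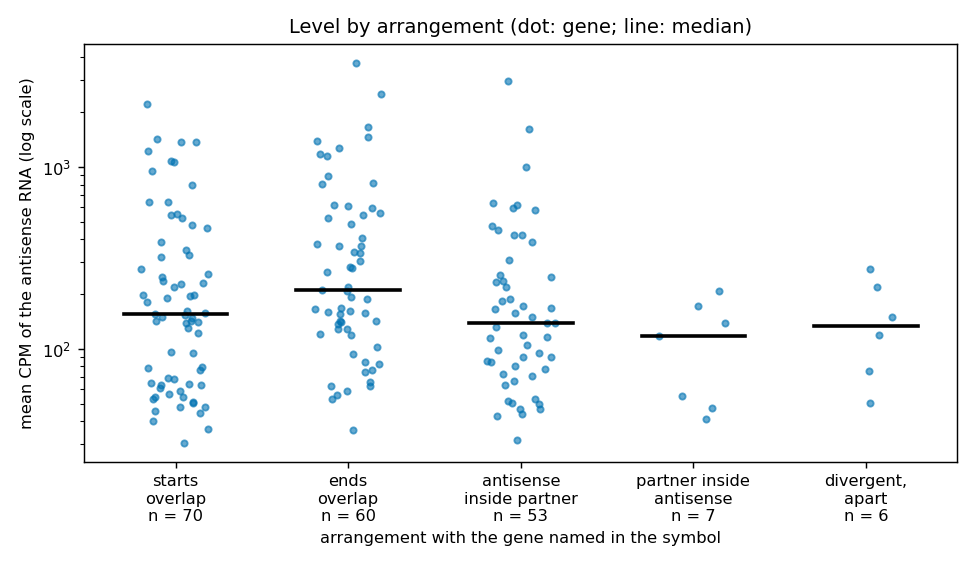
Mean CPM (log scale, 3 libraries) of antisense RNA genes by their arrangement with the partner, 1 dot per gene with lines at the medians, which lie between 117.4 and 209.3 CPM. Each class with over 50 members spans more than 1 order of magnitude, and the dots of the classes overlap.

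Promoter windows of 300 bases, 250 before to 50 after each start, were found in RefSeq (GRCh38.p14) for 146 members and 164 partners. The members' median GC content was 59.7% with 16.5 CpG sites, against 58.3% and 14 for all 27305 promoters. The 1378 RefSeq antisense symbols that were not members, whether or not they were among the counted names, had 55.7% and 9. The partners had 65.0% and 26 CpG sites. The letters TATAAA, read on both strands, occurred in 11.0% of member windows and 12.0% of all windows, CCAAT in 32.9% and 35.7%, and GGGCGG in 45.9% and 44.6%. Of the partner windows 4.27% held TATAAA, 35.4% CCAAT and 69.5% GGGCGG. Member and partner windows can share bases where the starts of a pair lie close together, and a match of letters is a description, not a site.

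Grouped by what the partner gene does, members named for RNA processing and translation genes had the highest median, 484.0 CPM over 16 members. These included NIFK-AS1, ZRANB2-AS1, HNRNPU-AS1 and GAS5-AS1. HNRNPU-AS1, named for a nuclear matrix RNA-binding protein, had 456, 586 and 417 counts, against 29, 18 and 41 for HNRNPU, and its symbol is now listed in RefSeq as an older name of HNRNPU itself. GAS5-AS1 had 439, 500 and 415 counts, against 11, 2 and 7 for GAS5, a host gene of small nucleolar RNAs.

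The 12 members named for cell cycle and DNA genes had a median of 428.4 CPM. PCNA-AS1, PRC1-AS1 and TMPO-AS1 led them, and MCM3AP-AS1, named for an acetyltransferase-like partner of the replicative helicase, had 373, 381 and 287 counts, against 91, 86 and 91 for MCM3AP. All 12 were above their partner by CPM in every library. The ranges of the groups overlap widely, from 44.0 to 2528 CPM for RNA processing and from 51.0 to 3206 CPM for the cell cycle.

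Medians of the other groups were closer together by CPM. They were 186.3 CPM for 52 members named for transcription and chromatin genes, 176.3 for 30 named for metabolism and mitochondria, 169.5 for 14 named for membrane and transport genes and 157.2 for 19 named for cytoskeleton and trafficking. Those for protein folding and degradation had 150.0 CPM over 18 members, signalling had 126.0 over 36 and the 18 with another or unknown partner had 103.5. Per kilobase RNA processing and translation stayed highest, at 156.6 CPM. On that scale transcription and chromatin, at 109.3, stood above cell cycle and DNA, at 96.07, with metabolism and mitochondria at 80.6. The members were chosen on counts, so these medians describe the chosen genes and not the pathways.

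Libraries were compared with an edgeR Poisson model over all 2564 names, which asks whether a name varied between replicates by more than counting noise. At an adjusted p under 0.05 (Benjamini-Hochberg) 111 of 215 members varied, or 51.6%, against 45.8% of the names tested. The members' median excess coefficient of variation, the spread left after counting noise, was 0.17, against 0.20 over all names tested. The share of members that varied was thus near that of the names that passed the same count limit. Adjusted over every name with a count, 94 members varied, or 43.7%, against 20.1% of the 14482 names, most of which had under 10 counts in a library. By function group it ran from 4 of 16 for RNA processing and translation to 12 of 18 for those with another or unknown partner, and 26 of the 52 transcription and chromatin members varied.

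Replicate 2 was at one end of the range in 91 of the 111, or 82.0%, against 86.3% of all names that varied. The 111 were highest in replicate 1 in 25, in replicate 2 in 42 and in replicate 3 in 44, which is 22.5%, 37.8% and 39.6%, against 23.1%, 49.3% and 27.6% of all varying names. Over all names tested, 22.6% varied and were highest in replicate 2. The 111 were lowest in replicate 1 in 41, in replicate 2 in 49 and in replicate 3 in 21, which is 36.9%, 44.1% and 18.9%, against 38.6%, 37.0% and 24.4% of all varying names. Scaled to total counts in place of TMM, 116 members varied, of which 21 were highest and 81 lowest in replicate 2, so the split between high and low in that library depends on the scaling. Without replicate 2, 29 of 215 varied, or 13.5% against 9.45% of all names.

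PKIA-AS1, named for an inhibitor of protein kinase A, was the least even member, with 37, 118 and 22 counts (excess coefficient of variation 0.77, adjusted p = 3.04e-13). RDH10-AS1, named for a retinol dehydrogenase, had 40, 102 and 30 counts, and SSBP3-AS1, named for a single-stranded DNA-binding cofactor, had 22, 62 and 18. TBC1D22A-AS1, named for a GTPase-activating protein, had 15, 54 and 18 counts. In PKIA-AS1, RDH10-AS1, SSBP3-AS1 and TBC1D22A-AS1 replicate 2 was more than 2 times each of the others.

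ST20-AS1, STARD7-AS1, NUCB1-AS1, CD81-AS1 and NEXN-AS1 were highest in replicate 1. ST20-AS1 had 235, 74 and 104 counts (excess coefficient of variation 0.52, adjusted p = 7.45e-18), and STARD7-AS1 above had an adjusted p of 2.98e-40 at a smaller excess of 0.39. NUCB1-AS1, named for a calcium-binding Golgi protein, had 78, 23 and 36 counts, CD81-AS1, named for a tetraspanin, had 42, 15 and 10, and NEXN-AS1 had 39, 12 and 13. SAP30L-AS1, named for a histone deacetylase complex subunit, was highest in replicate 2 and lowest in replicate 3, with 34, 50 and 10 counts. ACVR2B-AS1, named for an activin receptor, was lowest in replicate 1, with 13, 28 and 30 counts. These last values are close to the limit of 10 counts, where 1 library decides the range.

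**Figure D5:**
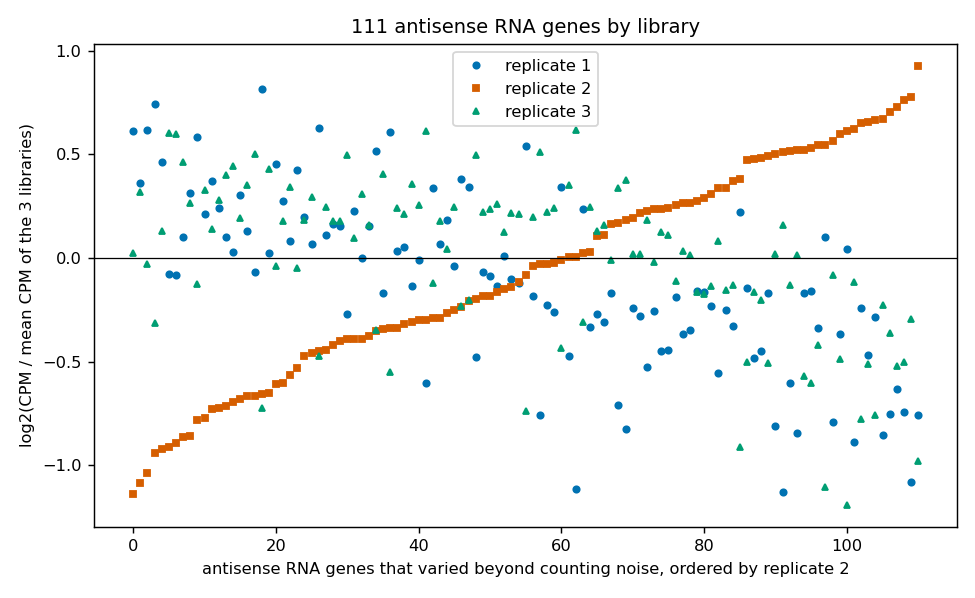
log2 of CPM over the mean CPM of the 3 libraries for the 111 antisense RNA genes that varied beyond counting noise, ordered from low to high in replicate 2 (squares), with replicate 1 as circles and replicate 3 as triangles. Replicate 2 lies at an end of the range for 91 of them, on the low side at the left and on the high side at the right.

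A list of 60 antisense RNAs with published roles, drawn up with earlier results of these data known, held 15 members. Another 42 were in the tables but were not members, and 3 were not in the tables. BACE1-AS, PCNA-AS1, TMPO-AS1, MCM3AP-AS1 and HIF1A-AS2 among the 15 are described above. HIF1A-AS1, at the 5′ end of HIF1A, had 102, 76 and 76 counts, against 1, 10 and 6 for HIF1A. AFAP1-AS1, studied as a tumour-associated RNA, had 62, 97 and 34 counts, against 4, 0 and 0 for AFAP1. LEF1-AS1, named for a Wnt pathway transcription factor, had 23, 26 and 12 counts, against 7, 6 and 6 for LEF1.

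SBF2-AS1, named for a phosphatase-like trafficking protein, had 38, 70 and 41 counts, against 43, 103 and 60 for SBF2, and was below its partner in every library by CPM and above it per kilobase. NNT-AS1, named for a mitochondrial transhydrogenase, had 47, 32 and 31 counts, KDM4A-AS1, named for a histone demethylase, had 134, 114 and 79, and PAXIP1-AS2, named for a DNA damage response protein, had 143, 192 and 99. CBR3-AS1, named for a carbonyl reductase, had 32, 21 and 13 counts, and FGD5-AS1 had 41, 29 and 19. By CPM 13 of the 15 were above their partner in every library, BACE1-AS and SBF2-AS1 were below, and 8 of the 15 varied beyond counting noise, or 53.3% against 45.8% of all names tested. Scaled to total counts, SBF2-AS1 and PAXIP1-AS2 no longer passed (adjusted p = 0.0927 and 0.435, edgeR). HIF1A-AS1 and MCM3AP-AS1 passed only with that scaling (adjusted p = 0.00488 and 0.0263, edgeR), not with TMM.

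In 4 loci 2 antisense genes of 1 partner were both members. HIF1A-AS2 had 1148 ± 196 CPM and HIF1A-AS1 219.6 ± 39.4 CPM (SD, n = 3 each), and per kilobase they had 2154 and 336.8. ST7-AS1 had 87, 120 and 107 counts and ST7-AS2, opposite the same gene, had 84, 129 and 77, while ST7 had 3 in each library. ZNF32-AS1 had 144, 173 and 133 counts and ZNF32-AS2 had 145, 123 and 93, against 0, 3 and 0 for ZNF32. PTOV1-AS1 had 76, 52 and 45 counts and PTOV1-AS2 had 295, 191 and 187, against 24, 7 and 15 for PTOV1. The 2 genes of a locus share their partner's values and are not independent.

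Some members carry names whose meaning has changed or whose reads are shared. SPTY2D1-AS1 and TOPORS-AS1 are listed in RefSeq as the protein-coding genes MISFA and SMIM27. NUTM2A-AS1 with 22, 16 and 11 counts and NUTM2B-AS1 with 65, 33 and 58 lie in near-identical copies, as do SRGAP2-AS1 and DHRS4-AS1, and their counts are uncertain. The rule's limit cut through closely similar values. Just inside it were BACE1-AS and LMLN-AS1, given above, LARGE-AS1 with 11, 30 and 10 counts, MAGI2-AS3 with 16, 17 and 10 and SEMA6A-AS1 with 18, 29 and 10. Just outside were PRKCA-AS1 with 13, 34 and 9 counts, ZNRF3-AS1 with 29, 9 and 11, TMEM220-AS1 with 19, 9 and 14, RAI1-AS1 with 19, 9 and 13 and ARHGEF26-AS1 with 18, 12 and 9.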

How the data were processed

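The deposited files gave raw counts per gene symbol from HTSeq 0.11.2, after Trimmomatic and TopHat2 (given as 2.2.5) on hg38, per the submitters' processing notes; no source used here gives the annotation, strand option or read layout. Summary lines (91.2% no feature, 6.77% not unique, 0.0184% ambiguous) were left out. CPM used TMM effective library sizes from edgeR 4.0.16 in R 4.3.3. The 2564 names with at least 10 counts in each library were fitted with edgeR's generalised linear model at dispersion 0 and an intercept. The deviance was compared with chi-square and adjusted by Benjamini-Hochberg over all of them. Log2 ratios used a prior of 0.5 CPM.

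Partners are the symbol without its suffix. Exons of all transcripts were merged from GENCODE release 29, a stand-in for the counting annotation. RefSeq gave promoters and the PCNA-AS1 span. With 1 group no comparison between groups was made. Named genes were the 15 highest by CPM, the 10 least even that varied, the 8 highest and 8 lowest ratios, 5 on each side of the count limit and the studied list. A few others were named after their values were seen, as partners, pairs at 1 locus, examples of a group or order, or names of changed meaning. Members, lists and function groups were chosen with earlier results of these data known. Alternatives were DESeq2 1.42.0 size factors, total counts, no TSIX, other filters, priors and statistics, and leaving out each replicate. The exonic overlap limit of 100 bases and the lower bounds against 3 counts were added after seeing the data. Python 3.11.15 with pandas 2.3.3, numpy 2.4.6 and scipy 1.17.1 was used. Some items that these rules name are not reported here.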

Additional observations from a re-analysis of the deposited data

How the results depend on the processing

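The number of members that varied, 111, was 111 with DESeq2 size factors (51.6% against 47.5% of names), 116 with total counts (54.0% against 46.7%), 112 without TSIX (52.1% against 45.7%), 94 without a count filter (43.7% against 20.1%) and 109 with a Pearson statistic (50.7% against 45.3%). It ranged from 29 to 90 when 1 replicate was left out: 70 without replicate 1 (32.6% against 28.9% of names), 29 without replicate 2 (13.5% against 9.45%) and 90 without replicate 3 (41.9% against 34.3%). Of the 111, 105 also varied with DESeq2 size factors and 90 with total counts. Of 51 named members 10 changed their call under total counts, among them RNF219-AS1 (adjusted p = 0.069, edgeR), which no longer passed, and ZRANB2-AS1 (1.92e-05), which then did. NIFK-AS1 passed with DESeq2 size factors (0.00138) and total counts. Highest and lowest in replicate 2 moved to 21 and 81 under total counts.

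The summed share, 7.996%, was 10.1% with TSIX left out. The median log2 ratio, 4.10, was 3.80 with a prior of 2 CPM, 5.16 per kilobase, 4.36 for members with at least 20 counts and 3.95 to 4.18 when 1 replicate was left out. The median CPM, 160.4, was 203.9 without TSIX and 161.7 to 170.0 when 1 replicate was left out. The count of members was 271 with a limit of 5 counts and 162 with 20. Members above their partner numbered 182 to 185 when 1 replicate was left out, and 160 members had an opposite exon overlap of at least 100 bases. No paired analysis was possible because there is 1 group, in which replicate numbers pair nothing.

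A count of 0 allows a level of up to 6.86 to 9.89 CPM, so partners with no count cannot be ranked among themselves. The unstated strand option limits the counts of every name, with or without an exon on the other strand.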
